A study of Homo sapiens with 4 samples.

Results

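The enrichment of lamin B1 along chromosomes 1 to 22 was described in LNCaP, an established androgen-sensitive line of human prostate adenocarcinoma. The chromatin of cells grown to confluence was fixed with formaldehyde, sheared and immunoprecipitated with a polyclonal antibody to lamin B1, and the recovered DNA was compared with LNCaP input DNA that had seen no antibody. There was 1 ChIP library and 1 input library, so no difference has a replicate check and no test was made. The series holds 4 libraries, and those of the VCaP line were not used here. The authors' deposited table gives, bin by bin in the hg19 build, the log2 ratio of ChIP to input, called enrichment below, and most bins are 40 kb wide. Every bin with a value on these chromosomes was taken, which gave 67403 bins of the 71799 that have a value when chromosomes X and Y are counted.

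The nuclear lamina is a mesh of A-type and B-type lamins under the inner nuclear membrane. Chromatin that touches it forms lamina-associated domains, which in most cell types are long, poor in genes, late in replication and little transcribed. A lamin B1 ChIP recovers such chromatin, so a positive log2 value marks DNA that was recovered more in the ChIP than in the input. LNCaP is also known as a line with an altered number of chromosomes. Copy number was not measured here, and its part in any value below was not tested.

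The landscape as a whole was shallow, with a long tail of very low bins. The median log2 enrichment was 0.06, the quartiles were -0.16 and 0.31, and 56.7% of bins lay over 0. The central 90% of bins lay between -0.50 and 0.69, whereas the lowest bin was at -4.24 and the highest at 1.55. Bins under -1 numbered 406, and bins over 1 numbered 220. The noise of a bin, taken from bins 3 apart, was 0.15 log2 units. Such bins can also differ in signal, so this figure holds both and can exceed the noise alone.

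Bins were called high over 0.25 and low under -0.25. By these limits 29.8% of bins were high, 17.0% were low and 53.2% lay between. Many bins sat close to a limit. Within 0.05 of the upper limit, 2734 bins lay above it and 3063 below. Within 0.05 of the lower limit, 2407 bins lay below it and 2822 above. Farther out than the limit by more than this noise figure were 12614 high and 5610 low bins. These limits fix what is called high or low, and the shares per arm below are read against the 29.8% and 17.0% of all bins.

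Most of the variation lay within windows of 5 Mb and not between them. Means over windows of 200 kb held 89.2% of the variance of single bins, windows of 1 Mb held 65.5%, windows of 5 Mb held 36.9% and windows of 10 Mb held 29.3%. Differences between whole arms held 15.4% and differences between whole chromosomes 10.2%. The correlation of bins of the same library was 0.78 at a distance of 120 kb (66917 pairs of bins), 0.39 at 1 Mb (65009 pairs) and 0.17 at 10 Mb (51512 pairs). So bins 10 Mb apart still shared some of their level, as they do where a whole arm is high or low.

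Chromosome arms differed widely in level. The 39 arms with values had medians from -0.40 to 0.46, with 23 arms over 0 and 16 under. The middle of the order was close to 0, as the quartiles of the arm medians were -0.05 and 0.14.

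**Figure D1:**
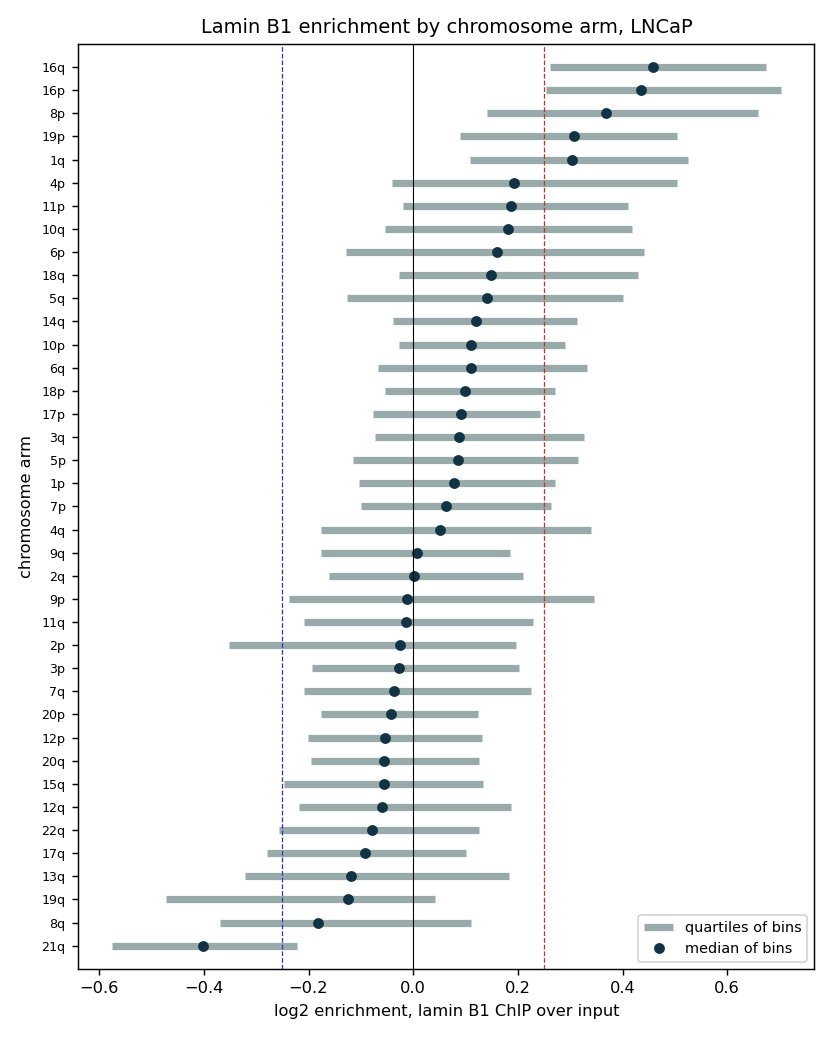
Median (points) and quartiles (bars) of log2 enrichment over the bins of each of the 39 chromosome arms, ordered by median, with the limits of high (0.25) and low (-0.25) bins dashed. Both arms of chromosome 16 stand at the top, at 0.46 and 0.44, and chromosome 21 stands at the bottom, at -0.40.

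Both arms of chromosome 16 had the highest medians. The long arm had a median of 0.46 (quartiles 0.26 and 0.67), with 76.6% of its 1099 bins high and 0.364% low. The short arm had a median of 0.44 (quartiles 0.25 and 0.70), with 75.3% of its 879 bins high and 2.05% low. The 2 arms differed by 0.02, and their windows of 10 Mb overlapped. The level was high all along the chromosome, since the medians of its 8 windows of 10 Mb lay between 0.31 and 0.64.

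The next 3 arms were 8p, 19p and 1q. The short arm of chromosome 8 had a median of 0.37 with 63.7% of bins high. The short arm of chromosome 19, a chromosome known for its density of genes, had a median of 0.31 with 55.7% of bins high. The long arm of chromosome 1 had a median of 0.30 with 56.6% of bins high. The windows of 10 Mb ran from 0.34 to 0.46 on 8p, from 0.11 to 0.38 on 19p and from 0.04 to 0.44 on 1q, so neighbours in this order overlapped. In no other arm were more than 50% of bins high (5 arms in all), so these 5 arms were mostly high. The order went on with 4p at 0.19 and 11p at 0.19, with 44.9% and 42.0% of bins high.

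Chromosome 21, of which the table covers the long arm and a short stretch before it, had the lowest median. It was -0.40 (quartiles -0.58 and -0.22), 71.7% of its 889 bins were low and 2.47% were high. All 4 of its 10 Mb windows had medians between -0.45 and -0.29, so the low level was not set by 1 part of the chromosome, although stretches near 0 lay within it, as described with the runs and steps. It was the only arm in which more than 50% of bins were low. The next 4 arms from the bottom were 8q at -0.18, 19q at -0.12, 13q at -0.12 and 17q at -0.09, and the windows of each overlapped those of the next. The lowest windows of 8q, at -0.34, also reached into the range of chromosome 21. Low bins made up 41.4% of 8q, 35.3% of 19q, 33.2% of 13q and 27.9% of 17q. Within 13q the 10 Mb windows ran from -1.44 to 0.05, a range set by its far end, which is described with the deep runs.

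The arms of the same chromosome did not always share a level. Among the 17 chromosomes with both arms in the table, the long arm was lower in 9 and higher in 8, and the median size of the difference was 0.07. Chromosome 8 had the largest one. Its long arm lay 0.55 below its short arm on the log2 scale, and the windows of 10 Mb did not overlap, with 0.34 to 0.46 on 8p and -0.34 to 0.13 on 8q. On chromosome 19 the medians were 0.31 on the short arm and -0.12 on the long arm, and the windows ran from 0.11 to 0.38 and from -0.63 to -0.03. Chromosome 17 was the only other chromosome whose windows did not overlap, with medians of 0.09 on 17p and -0.09 on 17q, and 17p had 2 such windows. On chromosome 1 the order was the opposite, at 0.08 on the short arm and 0.30 on the long arm, with overlapping windows. On chromosome 11 the short arm stood at 0.19 and the long arm at -0.01. The arms of chromosomes 12 and 20 were nearly level, with long minus short differences of -0.005 and -0.01.

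Gene number was set beside the chromosome medians, since lamina-associated chromatin is known to be poor in genes. Protein-coding genes were counted per chromosome in RefSeq (GRCh38) without using positions, and divided by the length the table covers outside bins over 1 Mb. Over the 22 chromosomes the Pearson r was 0.02 and the Spearman rho -0.09, as a description with no test. Without chromosomes 19 and 17, the farthest in gene density, r was 0.12 and rho -0.03. Without chromosome 16, the highest in enrichment, r was -0.06 and rho -0.19, so the sign of r rested on single chromosomes. Chromosome 19, with 25.7 genes per Mb, had a median of 0.03, close to that of all bins. Chromosome 18, with 3.60 genes per Mb, had 0.14, and chromosome 13, with 3.51, had -0.12. Chromosome 16, the highest in enrichment, had 10.8 genes per Mb, fewer only than chromosomes 19, 17 and 22, and chromosome 21, the lowest, had 6.71. So in this table the most and the least enriched chromosomes were neither the poorest nor the richest in genes. Medians of whole chromosomes cannot show whether high bins are poor in genes, since differences between chromosomes held 10.2% of the variance.

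**Figure D2:**
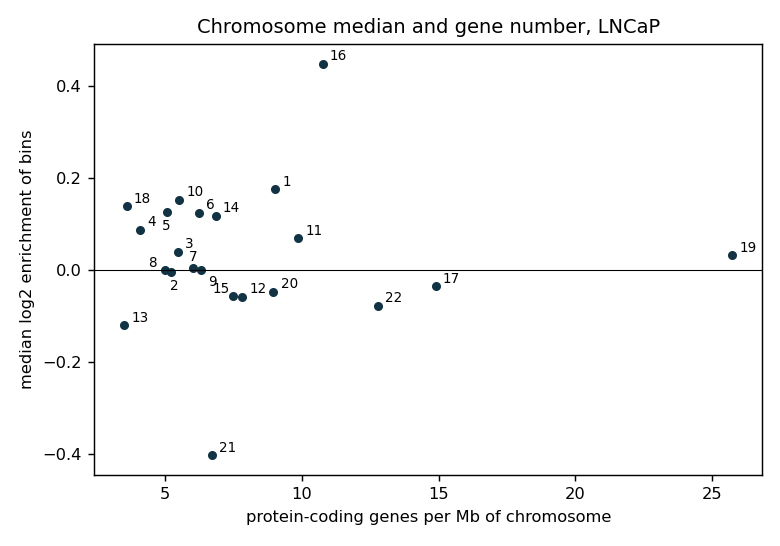
Median log2 enrichment of each of the 22 chromosomes (vertical axis) against its protein-coding genes per Mb (horizontal axis), with chromosome numbers beside the points. The points show no slope (r 0.02), and chromosomes 16 and 21 stand apart at 0.45 and -0.40.

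Position along the arm was compared next. Within 1 Mb of an arm's end the median was 0.03 (922 bins), and in the next 1 Mb it was 0.18 (974 bins). It then fell with distance, to 0.15 at 2 to 5 Mb, 0.12 at 5 to 10 Mb, 0.08 at 10 to 20 Mb and 0.04 beyond 20 Mb. High bins made up 43.0% of the bins 1 to 2 Mb from an end, against 27.9% of those beyond 20 Mb. The arms were not alike at their ends. In the last 1 Mb the median was over 0 in 21 of 39 arms, and it ran from 0.66 on 16q to -0.51 on 5q.

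Beside the centromere gap the level was raised in the nearest 1 Mb. There the median was 0.14 (945 bins) with 40.2% of bins high, and it was 0.05 at 1 to 2 Mb, 0.04 at 2 to 5 Mb and 0.01 at 5 to 10 Mb. Farther out it was higher again, at 0.05 from 10 to 20 Mb and 0.06 beyond 20 Mb. In this nearest 1 Mb the median was over 0 in 27 of 39 arms. The highest values were 0.70 on 10q and 0.66 on 11p. The lowest was -0.74 at the first bins of chromosome 21. Every difference between classes of distance was smaller than the distance between the quartiles within any class.

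**Figure D3:**
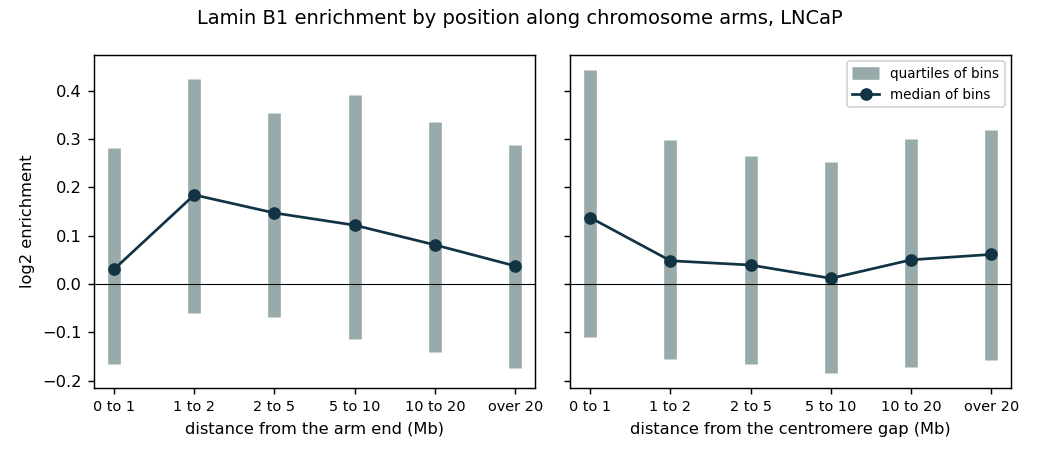
Median (points) and quartiles (bars) of log2 enrichment over bins grouped by distance in Mb from the arm's end (left) and from the centromere gap (right). The median is highest 1 to 2 Mb from an arm's end, at 0.18, and within 1 Mb of the centromere gap, at 0.14.

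High runs, the stretches of adjacent high bins, numbered 2553 and covered 801.6 Mb. Their median length was 160 kb (quartiles 80 and 360 kb). Short runs were the most common, but longer ones held most of the sequence. Runs of 1 to 4 bins made up 57.2% of high runs and held 15.4% of their bins. Runs of 25 bins or more, which span at least 1 Mb, made up 7.25% of runs, or 185 runs, and held 37.2% of the bins. Longer runs were also higher. This order, which low runs share below, follows at least in part from cutting averaged values at a limit. The median of the run means was 0.30 in runs of 1 to 4 bins, 0.42 in runs of 5 to 24 bins and 0.59 in runs of 25 bins or more.

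Low runs numbered 2352 and covered 456.6 Mb. With both limits centred on the median of all bins there were 2824 low and 2250 high runs. Which kind was more numerous thus depended on the zero point. At the limits used here low runs were shorter, with a median length of 120 kb (quartiles 40 and 200 kb). Runs of 1 to 4 bins made up 71.3% of them and held 31.0% of their bins. Only 52 low runs spanned 25 bins or more, and they held 21.5% of the bins. The median of the run means was -0.31 in the shortest class, -0.41 in the middle class and -0.54 in the longest class. The longest low run was nonetheless longer than the longest high run, at 6840 kb against 4840 kb. As runs of the deposited associated state, described last, the longest was 15120 kb.

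**Figure D4:**
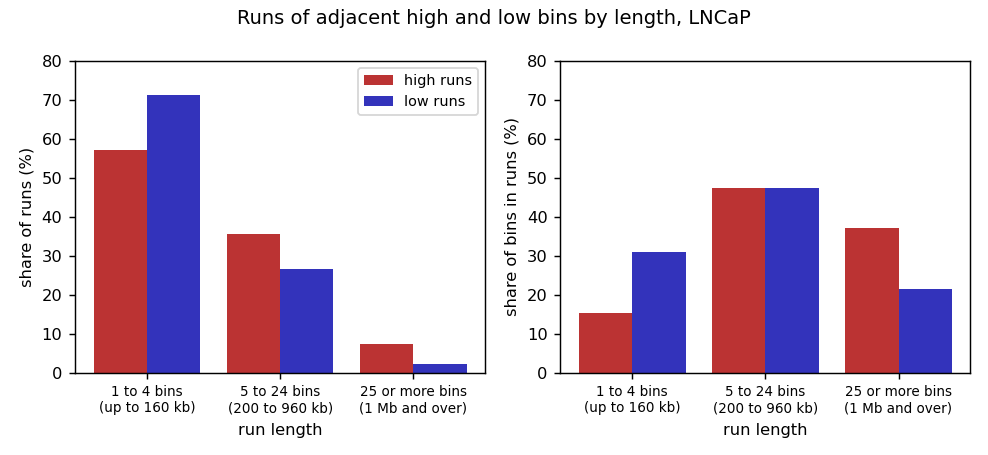
Shares of high runs (red) and low runs (blue) in 3 classes of length, as a share of runs (left) and of the bins they hold (right), in percent. Runs of 25 bins or more are 7.25% of high runs and hold 37.2% of their bins, and for low runs these shares are 2.21% and 21.5%.

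Runs were mostly next to runs of the same kind. Of the neighbouring pairs of runs of 5 bins or more, 49.2% were high then high and 25.5% low then low, with median distances of 400 and 380 kb. A change of kind made up the rest, as 211 pairs went from high to low and 217 from low to high, and the median distance between them was 800 kb in both directions. Of these changes, 30 and 35 took place within 5 bins. So a passage between high and low runs of this length mostly crossed more than 5 bins that belonged to neither. Among pairs of the same kind, 272 of 830 high and 162 of 430 low pairs had 5 bins or fewer between them. With 1093 high and 675 low runs of this length, many such pairs would arise in a random order, and that share was not computed.

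How the high bins were gathered differed between arms. On 16q, 58 high runs held them, 9 of these runs were of 25 bins or more, and those 9 held 60.2% of the arm's bins in high runs. The share was similar on 8p, at 61.6% (9 of 57 runs), and on 4p, at 61.9% (10 of 56 runs), and it was 53.7% on 16p. It was lower on 1q, at 42.6% (16 of 169 runs), and on 19p, at 26.9% (2 of 36 runs). The median high run was nonetheless longer on 19p than on 1q, at 220 and 160 kb. For low bins the share in runs of 25 bins or more was 64.3% on chromosome 21 (7 of 38 runs), 60.4% on 2p (7 of 66 runs) and 54.0% on 19q (1 of 36 runs), while 8q, with 139 low runs, had 21.5%. On 16q there were 3 low runs, the longest of 80 kb.

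The 5 longest high runs lay on chromosomes 16, 8 and 4. The longest ran on 16p from 4200001 to 9040000, over 121 bins with a mean of 0.72 and bins from 0.25 to 1.10. The second ran on 16q from 84760001 to 89440000, over 117 bins with a mean of 0.90 and a highest bin of 1.41. The third lay near the end of 8p, from 2000001 to 6280000, with a mean of 0.76 over 107 bins. The fourth was on 4q from 178760001 to 182880000, with a mean of 0.58 over 103 bins, and it was the most even of the 5, with an SD over bins of 0.11. The fifth was on 16q from 59600001 to 63560000, with a mean of 0.74 over 99 bins.

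The surroundings of these runs differed. On chromosome 16 the 2 Mb on either side of the 3 runs had medians between 0.31 and 0.70, so these runs were crests of an already high level. The 2 Mb before and after the 8p run stood at 0.35 and 0.14, and those of the 4q run at 0.45 and 0.06, so these 2 runs had a lower side toward higher coordinates.

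By mean, the highest high runs of at least 5 bins included both sides of the centromere gap of chromosome 10. On 10p the run from 38800001 to 39160000 had a mean of 0.97 over 9 bins, and on 10q the run from 42320001 to 43040000 had a mean of 0.88 over 18 bins. Each bordered the gap. The other 3 were away from gaps. They were the second-longest run on 16q at 0.90, a run on 8p from 31120001 to 33320000 at 0.88 over 55 bins, and a run on 1q from 238040001 to 239160000 at 0.87 over 28 bins.

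The 5 longest low runs lay on 2p, 19q, 11q and chromosome 21. The longest ran on 2p from 64000001 to 70840000, over 171 bins with a mean of -0.63 and bins from -1.13 to -0.26. Its flanks were low as well, with medians of -0.43 and -0.31 in the 2 Mb before and after. The second ran on 19q from 43800001 to 49760000, over 149 bins with a mean of -0.75, and the 2 Mb before and after it had medians of -0.54 and -0.07.

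The third ran on 11q from 63040001 to 68160000, over 128 bins with a mean of -1.06 and a lowest bin of -1.77, while the 2 Mb before and after it stood at 0.09 and -0.02. Its level thus fell and returned by about 1 log2 unit within a region that was otherwise near 0. The other 2 were on chromosome 21, from 28160001 to 32120000 with a mean of -0.50 over 99 bins, and from 22160001 to 25480000 with a mean of -0.65 over 83 bins. The latter also lay between flanks near 0, at 0.03 and 0.08.

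Bins under -1 were rare, at 0.602% of all bins, and uneven in place. They fell on 19 chromosomes, and chromosomes 13 and 11 together held 38.2% of them, with 80 of their 2401 and 75 of their 3290 bins. Chromosome 21 held 38 among 889 bins, the largest share of any chromosome's own bins, and chromosome 9 held 29 among 3046. Chromosomes 14, 18 and 20 held none. Of the bins under -1, 14.3% lay within 5 bins of a gap or a chromosome end, against 1.76% of all bins, and the part of gaps in those values was not tested. The bins under -1 formed 113 runs, of which 17 had at least 5 bins.

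The longest of these 17 runs was at the far end of 13q. From 109720001 to 112360000, 66 adjacent bins had a mean of -1.77 and an SD over bins of 0.15, the same as the noise of a bin to 2 decimals, so this stretch was deep and even. It ended at a wide bin, and a second deep run of 7 bins followed from 112480001 to 112760000 with a mean of -1.44.

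On 11q there were 4 deep runs among the 15 lowest, all inside the long low run described above. The deepest, from 63240001 to 64280000, had a mean of -1.54 over 26 bins, and the other 3 had means of -1.14, -1.13 and -1.10. On chromosome 21 there were 3. One that lay 4 bins from a gap, from 9880001 to 10080000, had a mean of -2.90 over 5 bins and an SD of 0.96. The other 2, from 17520001 to 18040000 and from 22440001 to 22920000, were far more even, with means of -1.32 and -1.31 and SDs of 0.15 and 0.06.

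Other deep runs among the 15 lay on 10q from 48040001 to 48240000 (mean -1.63, 4 bins from a gap), on 6p from 20280001 to 20840000 (mean -1.37 over 14 bins), on 8q from 128040001 to 128240000 (mean -1.34), on 19q from 47320001 to 47520000 (mean -1.18) and on 13q from 75800001 to 76000000 (mean -1.11). Some low runs went as low by mean without 5 bins under -1. A run on 8p from 39240001 to 39440000 had a mean of -2.12 over 5 bins with an SD of 1.09, and a run at the start of 19p from 80001 to 280000 had a mean of -1.46 over 5 bins, all beside the end.

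Abrupt steps were sought as points where the median of the 8 bins (320 kb) after differed by at least 0.75 from the median of the 8 bins before, skipping 2 bins for the averaging of the deposited values. Of 65617 points, 1.35% passed this limit, and they formed 205 steps, 112 upward and 93 downward. Their median size was 0.85, while the scaled median size of the difference over all points was 0.23. Steps of at least 1 numbered 31, and steps of at least 1.5 numbered 5. In 78 steps (38.0%) the lower side was under -0.25 and the upper side over 0.25. In 23 the lower side was under -1.

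The sizes depend on the averaging of the deposited values. With it undone and the medians taken again over 8 bins on each side, 44 of the 205 steps were under 0.75 in size, 1 of them among the 20 largest sustained steps. How many bins a step takes was not measured over all steps, since adjacent bins with the averaging undone differ by noise alone. Where a share of a named step is given below, it is that of the largest change between adjacent bins near the step. Noise raises such a share.

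Among the 10 largest steps, 8 are described here. The largest of these 8 closed the deep stretch of 13q. At 112800001 the median rose from -1.47 to 0.67, a step of 2.14. With the averaging undone, adjacent bins read -1.55, -1.50 and -1.18 before the edge and 0.52, 0.62 and 0.65 after it, so 76.7% of the rise lay between 2 adjacent bins. Only 8 bins separated this step from a wide bin, so it could not be judged over 2 Mb. The start of the same stretch was a smaller step of -1.16 at 109560001.

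The start of the 11q low run was the next in size, of -1.64 at 63120001, from 0.16 to -1.48. The largest change between 2 adjacent bins was 40.3% of the fall. The undone values of adjacent bins went from -0.05 to -0.71, -1.06, -1.04 and -1.37, a fall spread over several bins.

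On 6p there were 4 of the 10 largest steps. A trough was bounded by a fall of -1.49 at 10920001 and a rise of 1.49 at 11400001, with a median of 0.47 on both outer sides and -0.99 inside. At its right edge adjacent bins with the averaging undone went from -0.90 to 0.36. Farther along, a step of -1.33 at 19960001 took the median from 0.52 to -0.81. With the averaging undone, the largest change between adjacent bins, from 0.46 to -0.88, lay at 19840001. The bins after it read -0.87, -0.46 and -0.36, so the fall was not even. A rise of 1.55 followed at 20920001, from -1.59 to -0.03. The last 2 of the 10 lay near gaps, at 48280001 on 10q (1.35, 10 bins from a gap) and at 9720001 on chromosome 21 (-1.33, 8 bins from a gap).

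**Figure D5:**
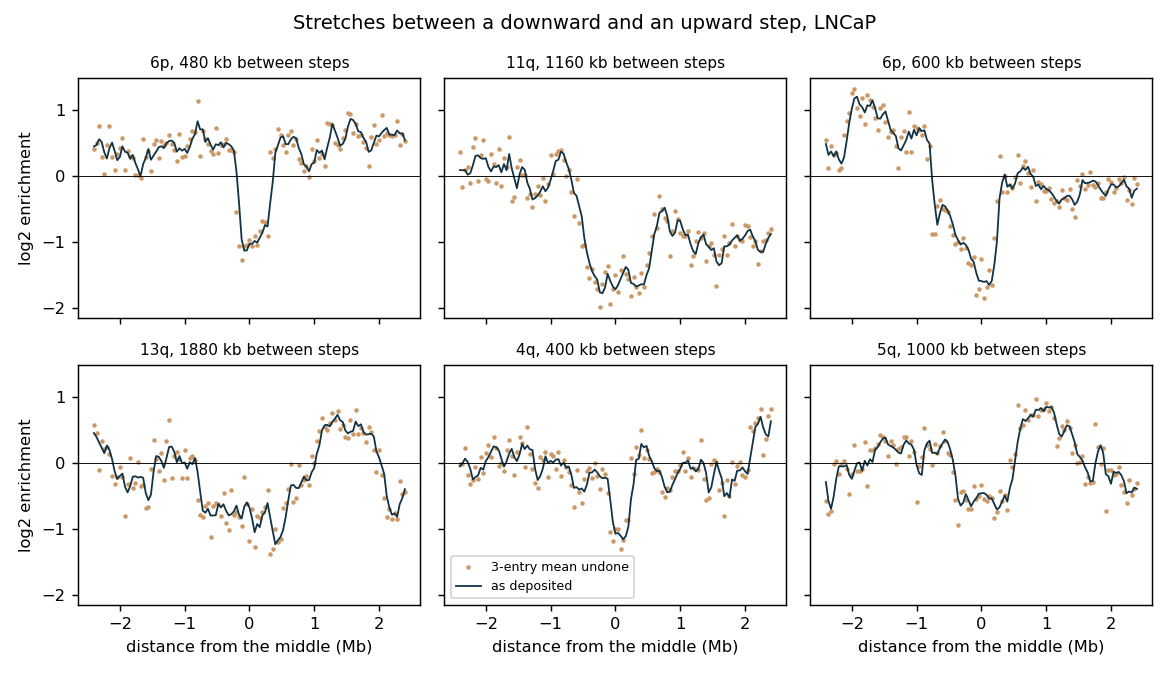
Log2 enrichment of bins within 2.4 Mb of the middle of 6 stretches that lie between a downward and an upward step, on shared axes. They are among the stretches that lay farthest below their flanks, whatever their own level. Values are as deposited (line) and with the 3-entry mean undone (points). The first 6p stretch falls to a median of -0.99 between flanks of 0.47, and the 11q stretch falls to -1.57.

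Steps were sustained when the medians of the 2 Mb (50 bins) on either side differed by at least 0.5 in the same direction. This held for 49 of the 205 steps, 27 downward and 22 upward. Steps with fewer than 50 bins on either side before a gap or chromosome end could not pass, whatever their difference. Those at 112800001 on 13q and 48280001 on 10q, for example, differed by 2.06 and 1.02 over the bins available. The largest sustained step was that of 11q at 63120001, with a 2 Mb difference of -1.25. It was followed by the 6p step at 19960001 (-0.93 over 2 Mb) and the 13q step at 109560001 (-1.46 over 2 Mb). Among sustained steps, that of 13q at 109560001 had the largest 2 Mb difference.

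Chromosome 5 held the most of the 20 largest sustained steps. Its long arm had falls at 58400001 (-0.89), 86400001 (-0.99), 152640001 (-0.99) and 178760001 (-1.02), and rises at 151280001 (0.89) and 177560001 (0.93). At 86400001 the median went from 0.96 to -0.03, and at 58400001 from 0.43 to -0.46. Over all its 3286 bins 5q had 26 steps, the highest number of any arm, of which 9 were sustained. Per length, chromosome 21 had more, with 22.5 steps per 100 Mb against 19.8 on 5q. Its steps at 9720001, 10680001 and 14880001 lay 8, 8 and 14 bins from a gap. On 5q those at 49720001 and 70240001 lay 8 and 16 bins from one. The order without such steps was not computed.

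The other sustained steps among the 20 were spread over 7 chromosomes. On 8p there was a rise at 39560001 (1.11, which was 0.37 with the averaging undone) and a fall at 35400001 (-0.92), and on 8q a rise at 91080001 (0.88). On 6q a rise of 1.08 lay at 123280001 and a fall of -0.93 at 87640001, and on 11q a rise of 1.07 lay at 87120001. Chromosome 21 had a fall of -1.09 at 22280001, where the median went from -0.23 to -1.32. Falls lay on 12q at 88480001 (-0.93), on 7q at 79640001 (-0.92) and on 7p at 10880001 (-0.91), and a rise of 0.93 lay on 1q at 193280001.

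Each arm of chromosome 16 had 1 step, although these arms held the highest medians, and 7p had 1 over 1450 bins. In all, 36 of the 39 arms had at least 1 step, and 5p, 17p and 18p had none.

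Stretches between neighbouring steps of opposite sign, no more than 5 Mb apart, were taken as bounded troughs or plateaus, a choice made after the values were seen. There were 35 troughs with a median length of 1080 kb and 22 plateaus with a median length of 1500 kb. The median difference from the flanks was -0.78 in troughs and 0.80 in plateaus. In 23 troughs and 14 plateaus the levels on the 2 outer sides were within 0.25 of each other. Inside 5 troughs the median was under -1. Of these, 4 lay on 11q, on 6p from 20320001 to 20920000, on 4q from 101840001 to 102240000 (-1.06) and on chromosome 21 from 22280001 to 22840000 (-1.30). The first trough of 6p came close, at -0.99.

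Among the plateaus, the one on 11p from 48320001 to 49000000 rose from -0.36 to 0.68 and fell back to -0.43. The one on 5q from 151280001 to 152640000 rose from -0.22 to 0.85 and fell to -0.05. The plateau that stood out most from its flanks was on chromosome 21, where 4200 kb from 18080001 stood at -0.05 between deep flanks of -1.42 and -1.32. That stretch was a plateau only against its flanks, since its own level was near 0.

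The deposited states of a hidden Markov model come from the same measurement and were set beside the runs. Of high bins, 96.5% carried the associated state, as did 16.2% of the bins between the limits and 0 of the 11439 low bins. All 1093 high runs of 5 bins or more were associated throughout. Of the 1460 shorter high runs, 1000 were associated throughout and 460 held no associated bin. So the state followed the limits used here except in short runs and in middling bins.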

How the data were processed

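The authors' deposited table gives log2 enrichment of the lamin B1 ChIP over the input in LNCaP, and a second deposited table gives a hidden Markov model state (AD or iAD) per bin. AD, the state with the higher values, is called associated. The build hg19 and the aligner STAR are listed per the submitters' processing notes. The scaling of ChIP to input is not given in the sources used here. Depth is unknown, and no counting interval was computed. Positions are those of the deposited bins, with starts counted from 1.

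Each deposited value averages 3 consecutive entries, ending with its own, as found from the values. Undoing this averaging brought the median absolute value in the 143 wider bins, which hold 139.8 Mb, from 0.23 to 0.004. The mean places signals about 40 kb downstream. Of the 67403 bins, 67260 were 40 kb wide, and only these entered runs and steps. Bins without a value, 44 in all, open each chromosome.

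Arms were split at the widest stretch without 40 kb bins, taken as the centromere gap. On chromosomes 13, 14, 15, 21 and 22 this is the stretch at the start, so chromosome 21 includes bins before its centromere. Noise is 1.4826 times the median absolute difference of bins 3 apart, divided by the square root of 2. Windows of 10 Mb needed 125 bins. Named regions were the 5 arms, runs or steps at each extreme by median, length or mean, the 10 largest steps, the 20 largest sustained steps and the 15 lowest deep runs. The members, limits and lists were chosen with earlier results of these data known. The search for runs and steps was tried before use on simulated sharp stretches, set on a flat level with independent noise. Their steps were larger than most found here. So the trial cannot show how many of the reported steps are right. The tools were numpy 2.4.6 and pandas 2.3.3, with scipy 1.17.1, under Python 3.11.15, and figures were drawn by matplotlib 3.10.9.

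Sequence and gene positions of hg19 were not used here, so no GC content or gene content of single bins is given. A region that the rule for named regions picked is not reported here.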

Additional observations from a re-analysis of the deposited data

How the results depend on the processing

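For 37 results, alternatives gave 135 further values, and 1 changed sign, r of chromosome median with gene density, from 0.02 to -0.06 without chromosome 16. The 5 highest and the 5 lowest arms were the same under all 4 alternatives. Of 50 values for the main questions, 34 stayed near the reported one and 16 moved. Near was a wide limit for counts, under which 2011 high runs passed as near 2553. Levels were near within the noise figure of 0.15, and shares within a binomial interval. The limit of 0.15 was applied to r as well, although r is not in log2 units. Undoing the 3-entry mean, an alternative chosen after seeing the data, gave 32.1% high and 19.9% low bins, 6052 high and 5826 low runs, and 85.6% of high bins in the associated state. It makes single bins noisier, by its construction. Weighting bins by length gave 16.3% low bins. A limit of 0.5 left 1424 high and 861 low runs, and a minimum of 5 bins left 1093 and 675. Runs of the associated state numbered 905. With 5 bins on each side there were 310 steps. A minimum step of 0.5 gave 885 steps, 158 of them sustained, and a minimum of 1 gave 31 and 8. Of the 85 other values, 3 moved. The longest high run was 3080 kb with a limit of 0.5 and 15120 kb as runs of the associated state, and the longest low run was 3600 kb with a limit of 0.5. No paired analysis was possible because LNCaP has a single ChIP library and a single input. With no depth given, the noise between bins is the only limit given.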

Other observations

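With the 3-entry mean undone, a few bins were very low. Undoing the mean deepens narrow dips by its construction, so these values cannot be set against the averaged runs described above. Some of these bins lay inside such runs, as on 8p. On chromosomes 1 to 22, 28 bins lay under -3, in 14 runs on 11 chromosomes, while 11 bins lay over 2. The lowest was -5.33, in a run of 3 bins on 22q from 20360001 to 20480000, and a single bin on 15q from 24680001 to 24720000 was at -4.83. A run of 3 bins on 8p from 39240001 to 39360000 had a mean of -3.49, one of 2 bins on 19q from 55240001 to 55320000 a mean of -3.80, and one of 2 bins on 7q from 102120001 to 102200000 a mean of -3.49. Of the 14 runs, 7 were single bins, and 5 of the 28 bins lay within 5 bins of a gap.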
